A study of Mus musculus with 6 samples.

Results

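The core circadian clock genes were followed in quadriceps muscle of MERKO and wild-type mice, a knockout of the estrogen receptor gene Esr1 (ERα) in muscle and its control. The 10 genes were taken by symbol from a table of 48795 genes: Arntl (also named Bmal1), Clock, Per1, Per2, Per3, Cry1, Cry2, Nr1d1, Nr1d2 and Dbp. All 10 matched a single Ensembl identifier, and all 10 passed the filter on low counts. RNA sequencing covered 3 MERKO libraries (genotype muscle-specific Er_alpha-/-) and 3 control libraries (genotype wildtype) from male C57BL/6 mice aged 20 weeks. The sources used here do not give the promoter that drives the deletion, any allele that control mice carry or the time of day at tissue collection. Nothing says that the libraries of a group came from separate animals. A p-value here thus sets the group difference only against the spread between these libraries, which may be technical.

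The mammalian clock is a feedback loop of transcription that runs in almost every cell, muscle fibres included. ARNTL and CLOCK bind E-boxes as a pair and switch on the Per, Cry, Nr1d and Dbp genes. PER and CRY proteins then block that pair, REV-ERB proteins (from Nr1d1 and Nr1d2) repress Arntl, and DBP passes the rhythm on through D-boxes. In mouse tissues Arntl transcripts peak in antiphase to those of Nr1d1 and Dbp, which peak during the day, with Per2 following around dusk. The ratio of such genes therefore moves with the time of the cycle at which a muscle is taken.

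The elements through which these genes regulate each other are shown where the letters were found close to a transcription start. Promoters from RefSeq (GRCm38.p6, 250 bases before to 50 after a start) were available for 9 of the 10 genes, with Per2 not among them, and gave 13 windows. Each motif was searched on both strands, and no match overlapped another. The E-box CACGTG stood in windows of Cry1 and Per1, against 7.15% of all 32851 windows. The related letters CACGTT stood in those of Cry1, Cry2 and Nr1d1 (4.68% of all windows), and the D-box TTANGTAA stood 2 times in that of Per3 (2.32%). The element shared by REV-ERB and ROR proteins stood in 1 window of Arntl (0.606%), just after the start. The cyclic AMP element TGACGTCA (1.79%) and the glucocorticoid element (0.475%) were in none of the 13. A match is only a description of letters. Capitals mark the matches in the following sequences, each 5′ to 3′ on the strand of its gene.
Cry1 (chr10:85185055-85185304, minus strand, CACGTT read on the other strand as AACGTG, then CACGTG): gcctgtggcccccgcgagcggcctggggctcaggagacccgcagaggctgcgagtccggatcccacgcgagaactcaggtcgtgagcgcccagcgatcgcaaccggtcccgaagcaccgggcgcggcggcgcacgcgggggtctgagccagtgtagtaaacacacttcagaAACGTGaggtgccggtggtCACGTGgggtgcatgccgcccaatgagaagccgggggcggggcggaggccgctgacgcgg
Per3 (chr4:151044666-151044915, minus strand, 2 D-boxes): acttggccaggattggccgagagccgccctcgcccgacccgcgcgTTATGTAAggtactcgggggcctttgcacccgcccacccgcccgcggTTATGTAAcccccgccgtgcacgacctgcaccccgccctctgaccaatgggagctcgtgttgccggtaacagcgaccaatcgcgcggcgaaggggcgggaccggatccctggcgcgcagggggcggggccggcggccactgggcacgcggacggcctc
Arntl (chr7:113207528-113207557, plus strand, REV-ERB and ROR element): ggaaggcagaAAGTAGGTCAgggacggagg
Per1 (chr11:69098771-69098800, plus strand, E-box): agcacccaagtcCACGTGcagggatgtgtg
Nr1d1 (chr11:98775388-98775417, minus strand, AACGTG): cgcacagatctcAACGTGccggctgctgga
Cry2 (chr2:92434218-92434247, minus strand, AACGTG): acacatggtgggAACGTGagggggcggagc

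The libraries held 15755947 to 26596608 counts in MERKO and 14935532 to 44282448 in control, of which the 10 clock genes took 5046 to 13377 counts in MERKO and 5396 to 21284 in control. Esr1 had 6.75, 9.43 and 7.46 CPM in MERKO 1 to 3, against 25.1, 34.1 and 31.1 CPM in control 1 to 3. CPM is the count scaled to a common library total with TMM factors (trimmed mean of M-values). Esr1 was lower in every MERKO library, with a log2 fold change of -1.95 (SE 0.16, 95% interval -2.33 to -1.57) that passed the edgeR quasi-likelihood test (adjusted p = 0.0262, Benjamini-Hochberg). Leaving out 1 library put that edgeR adjusted p at 0.102 (MERKO 1), 0.0576 (MERKO 2), 0.109 (control 2) or 0.0632 (control 3). Over all 17 alternatives the adjusted p of Esr1 ran from 8.6e-21 (DESeq2) to 0.242. Muscle was checked by its defining fibre markers (8 genes), which summed to between 104498 and 148788 CPM in MERKO and between 126515 and 142443 CPM in control. Slow-fibre markers (6 genes) summed to 384 CPM in MERKO 1, 417 CPM in control 1 and 4.97 to 19.4 CPM in the other libraries. Summed tendon markers (7 genes) ran from 81.7 to 391.6 CPM in MERKO and from 29.6 to 82.6 CPM in control, and adipocyte markers (8 genes) from 113 to 146 CPM in MERKO and from 148 to 478 CPM in control. Fabp4 was a large part of the adipocyte sum, at 115, 72.3 and 99.5 CPM in MERKO, against 100, 180 and 92.0 CPM in control. The median log2 fold change was 2.20 for tendon markers (6 of 7 higher in MERKO) and -2.14 for adipocyte markers (7 of 8 lower), and 0 of them passed by edgeR. At an unadjusted p under 0.05 (edgeR) there were 5 tendon and 6 adipocyte markers, where 7.04% of all genes were. DESeq2 called 1 tendon marker and 0 adipocyte markers, where it called 0.165% of all genes. No marker was at 0 in any library. The part of these differences in the clock results was not tested, and in whole muscle fewer cells of a type and less RNA per cell cannot be told apart. An rRNA gene model took 6.19% to 32.4% of counts in MERKO and 0.0433% to 27.7% in control, with the lowest share in control 3.

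None of the 10 clock genes passed the test between MERKO and control at an adjusted p under 0.05 (edgeR quasi-likelihood test), where 0.00734% of the 13628 genes tested passed. At an unadjusted p under 0.05 there were 2 clock genes, where 7.04% of all genes were: Per2, higher in MERKO as 3.71% of all genes were, and Arntl, lower in MERKO as 3.34% were. DESeq2 called 0 clock genes, against 0.165% of all genes (0.0934% higher and 0.0718% lower in MERKO), and limma-voom also called 0. The 10 genes were spread evenly over both directions, with 5 higher and 5 lower in MERKO, of which Per1, Cry1, Cry2 and Nr1d2 lay close enough to 0 to take the other sign under some alternative settings. Their median log2 fold change was 0.0011, against 0.011 over all genes, and their median absolute log2 fold change was 0.14 for the clock genes and 0.14 for all genes. Fold changes of the 10 genes lay between -0.40 for Arntl and 0.30 for Per2 on the log2 scale. The groups did not overlap in CPM in 2 of the 10, where 13.3% of all genes did not overlap (6.17% higher and 7.1% lower in MERKO). The plot of the 10 genes by library shows all values.

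**Figure D1:**
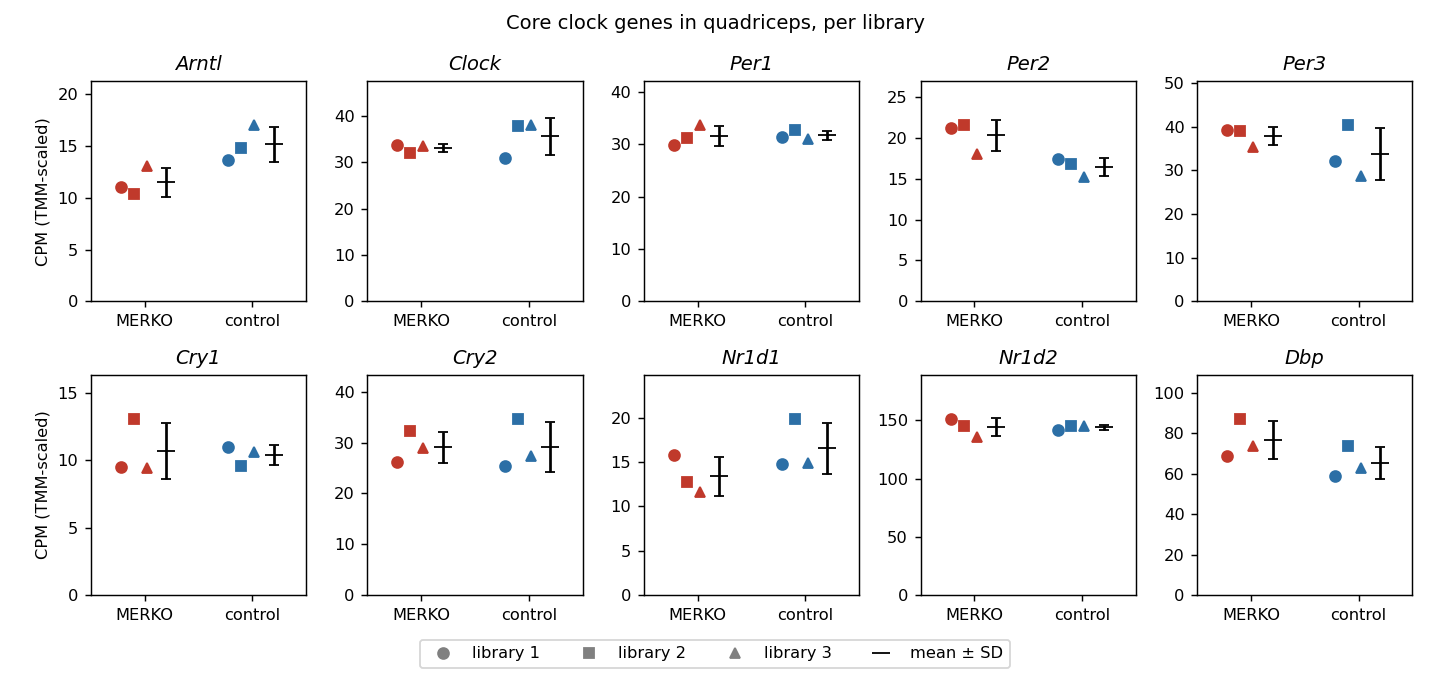
Level of each core clock gene in CPM (TMM-scaled, linear axes from 0) in the 3 MERKO and 3 control libraries, with points for libraries and bars for mean ± SD. Arntl lies lower and Per2 higher in all 3 MERKO libraries than in any control library, and the other 8 genes overlap.

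Arntl (ENSMUSG00000055116.8, chr7:113207465-113314126, plus strand) encodes the activator that pairs with CLOCK. Arntl stood at 11.1, 10.4 and 13.0 CPM in MERKO 1 to 3, against 13.7, 14.8 and 17.04 CPM in control 1 to 3. The groups did not overlap, and MERKO 3 and control 1 were close. Arntl averaged 11.5 ± 1.39 CPM in MERKO libraries, against 15.2 ± 1.72 in control libraries (SD, n = 3 each), a log2 fold change of -0.40 (SE 0.13, 95% interval -0.71 to -0.095, adjusted p = 0.671, edgeR). This did not pass the threshold. The value was -0.30 without control 3 and -0.33 without MERKO 2, the libraries that held its highest and lowest level. Its lowest library, MERKO 2, held so few counts of Arntl that counting error alone is 9.02% of the value.

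Clock (ENSMUSG00000029238.11, chr5:76209868-76304792, minus strand) encodes the partner of ARNTL. Clock stood at 33.6, 32.0 and 33.4 CPM in MERKO 1 to 3, against 31.0, 37.9 and 38.0 CPM in control 1 to 3. The MERKO libraries were nearly equal and lay inside the control range. Clock thus had a log2 fold change of -0.11, and the 95% interval of -0.35 to 0.13 leaves room for differences of either sign. The value was -0.20 without control 1, -0.058 without control 2, -0.057 without control 3 and -0.22 without a composition factor.

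Among the repressors of the pair, Per2 (ENSMUSG00000055866.9, chr1:91415982-91459324, minus strand) differed most. Per2 stood at 21.3, 21.5 and 18.0 CPM in MERKO 1 to 3, against 17.4, 16.8 and 15.2 CPM in control 1 to 3. All MERKO libraries lay above all control libraries, with MERKO 3 nearest to them. For Per2 the log2 fold change was 0.30 (SE 0.11, 95% interval 0.048 to 0.56, adjusted p = 0.683, edgeR), which did not pass the threshold and was 0.196 without a composition factor. Per2 averaged 20.3 ± 1.94 CPM in MERKO libraries, against 16.5 ± 1.11 in control libraries (SD, n = 3 each).

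Per1 (ENSMUSG00000020893.17, chr11:69095217-69109960, plus strand), the Period gene that responds fastest to glucocorticoids and other signals, stood at 29.9, 31.1 and 33.6 CPM in MERKO and 31.4, 32.7 and 31.0 CPM in control. The groups lay on top of each other. With a log2 fold change of -0.0045, Per1 had the narrowest 95% interval of the 10 genes, -0.21 to 0.197.

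Per3 (ENSMUSG00000028957.12, chr4:151003652-151044665, minus strand), the Period gene with the weaker role in the loop, stood at 39.2, 39.1 and 35.5 CPM in MERKO and 32.2, 40.4 and 28.7 CPM in control. Control 2 was as high as MERKO 1 and 2, so the groups overlapped. Per3 had a log2 fold change of 0.17 (95% interval -0.13 to 0.48), and it was 0.32 without control 2 and 0.065 without control 3.

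The cryptochromes bind the activator pair together with PER proteins. Cry1 (ENSMUSG00000020038.9, chr10:85131700-85185064, minus strand) stood at 9.46, 13.0 and 9.43 CPM in MERKO, against 10.96, 9.55 and 10.6 CPM in control. MERKO 2 was the highest of all 6 libraries and the other MERKO libraries the lowest, which gave a log2 fold change of 0.019 (95% interval -0.33 to 0.37) that was -0.13 without MERKO 2. Cry2 (ENSMUSG00000068742.11, chr2:92403646-92434043, minus strand) stood at 26.1, 32.2 and 28.9 CPM in MERKO, against 25.5, 34.6 and 27.3 CPM in control. Its library 2 was the highest of both groups, and the log2 fold change was -0.00029 (95% interval -0.32 to 0.32).

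The REV-ERB proteins repress Arntl in turn. Nr1d1 (REV-ERBα, ENSMUSG00000020889.11, chr11:98767932-98775333, minus strand) stood at 15.8, 12.7 and 11.6 CPM in MERKO, against 14.8, 19.9 and 14.9 CPM in control. Control 2 was the highest library and MERKO 3 the lowest, with MERKO 1 inside the control range. This gave Nr1d1 a log2 fold change of -0.29 (95% interval -0.67 to 0.084), and it was -0.14 without control 2. Exons of Thra, a gene on the opposite strand, cover 8.55% of the exon length of Nr1d1. The strand setting of the count is not known, so these reads cannot be assigned with certainty. Thra itself had 5199 counts over all libraries, where Nr1d1 had 151 to 813 counts per library.

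Nr1d2 (REV-ERBβ, ENSMUSG00000021775.10, chr14:18204054-18239127, minus strand) was the steadiest of the 10. Nr1d2 stood at 151, 145 and 136 CPM in MERKO, against 142, 145 and 145 CPM in control, a range of 1.11-fold over 6 libraries. Its log2 fold change was 0.0026 (95% interval -0.20 to 0.21).

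Dbp (ENSMUSG00000059824.12, chr7:45705088-45710203, plus strand), the output factor of the D-box, stood at 68.9, 87.1 and 73.6 CPM in MERKO, against 59.0, 73.9 and 63.1 CPM in control. MERKO 2 was highest and control 1 lowest, and control 2 lay among the MERKO libraries. Dbp had a log2 fold change of 0.23 (95% interval -0.060 to 0.52, adjusted p = 0.714, edgeR), which was 0.13 without MERKO 2 and 0.10 without a composition factor in the scaling. Exons of Sphk2 on the opposite strand cover 18.0% of the exon length of Dbp, with the same uncertainty in assignment. Sphk2 itself had 1862 counts over all libraries.

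Levels were compared between genes per kilobase of exon (RPKM, computed from CPM and the exon length in GENCODE M21). Nr1d2 averaged 26.7 RPKM over the 6 libraries and Dbp 23.7 RPKM, and their ranges overlapped. Both were apart from the rest, since the next gene, Per1, averaged 5.62 RPKM and reached at most 5.97 RPKM. From Per1 the order ran through Nr1d1 (4.87 RPKM), Cry2 (4.61), Per3 (3.73), Cry1 (3.15), Per2 (3.14) and Clock (2.26 to 2.77 over the libraries) to Arntl (1.77). From Per1 down, each pair of neighbours overlapped in range, although Cry2 lay above Per3 and Clock above Arntl in all 6 libraries.

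**Figure D2:**
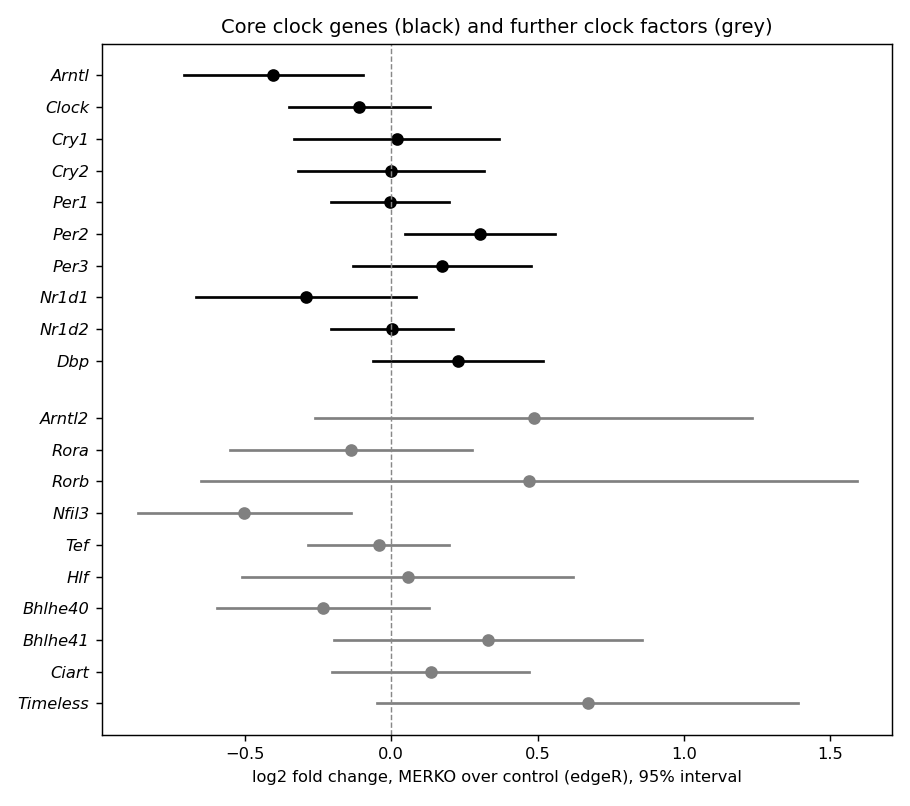
Log2 fold change of MERKO over control with 95% intervals (edgeR) for the 10 core clock genes in black and 10 further clock factors in grey. The intervals of Arntl (-0.71 to -0.095), Per2 and Nfil3 leave out 0, and no gene passes after adjustment over 13628 genes.

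Further factors linked to the clock, most of them transcription factors, were read from the same fit. Of 12 such genes 11 were tested. MERKO was higher for 6 and lower for 5 (median log2 fold change 0.056), and 0 passed by edgeR, DESeq2 or limma-voom (1 at an unadjusted p under 0.05). That gene was Nfil3, a repressor that competes with DBP at D-boxes and is itself controlled, like Arntl, by REV-ERB and ROR proteins. Nfil3 stood at 22.5, 19.2 and 17.9 CPM in MERKO, against 31.6, 21.9 and 30.7 CPM in control. Since MERKO 1 lay above control 2, the groups overlapped, and Nfil3 had a log2 fold change of -0.50 (SE 0.16, 95% interval -0.86 to -0.14, adjusted p = 0.668, edgeR). Npas2, a paralog of Clock, had 2 to 4 counts per library in MERKO and 3 to 7 in control and was not tested.

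The other D-box factors, Tef and Hlf, overlapped between groups. Tef had 242, 278 and 253 CPM in MERKO, against 275, 270 and 252 CPM in control, and its fold change was -0.043 (log2). Hlf stood at 5.69, 9.18 and 9.05 CPM in MERKO, against 5.38, 8.68 and 8.69 in control libraries (0.056 as log2 fold change, and -0.099 without a composition factor in the scaling). Hlf was lowest in MERKO 1 and control 1, the libraries that were high in slow-fibre genes. The same libraries were lowest for Bhlhe41, an E-box repressor, at 25.3, 49.8 and 36.5 CPM in MERKO and 24.5, 32.7 and 31.2 in control libraries. Bhlhe41 had a log2 fold change of 0.33 (95% interval -0.197 to 0.86), which was 0.55 without MERKO 1, 0.076 without MERKO 2, 0.21 without control 1 and 0.15 without a composition factor. Of the 10 core clock genes, only Cry2 also had MERKO 1 and control 1 as its lowest libraries. Dbp was lowest in MERKO 1 among MERKO libraries and in control 1 among control libraries. The part of fibre type in these values was not tested.

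The RORs, which activate through the element that REV-ERBs repress, include Rora, with a log2 fold change of -0.14 (95% interval -0.55 to 0.28) that was 0.046 without MERKO 1. Rora stood at 111, 167 and 179 CPM in MERKO, against 148, 172 and 181 CPM in control, lowest in MERKO 1, and the groups overlapped. Rorb was rare, with 0.46 to 1.18 CPM in MERKO and 0.24 to 0.71 CPM in control.

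Among the remaining repressors, Bhlhe40 had a log2 fold change of -0.23 (95% interval -0.59 to 0.13) and Ciart (CHRONO) one of 0.13 (-0.20 to 0.47). Bhlhe40 was at -0.38 without control 1 and -0.060 without control 2. Leaving out MERKO 1 put Ciart at 0.053, leaving out control 1 at 0.067 and leaving out control 2 at 0.21, and it was 0.038 with no composition factor. Arntl2, a paralog of Arntl, ranged from 1.40 to 2.61 CPM in MERKO libraries and from 1.26 to 2.13 in control libraries. Timeless, a replication fork protein named after a fly clock gene, was the 1 gene of the 11 tested whose groups did not overlap, where 13.3% of all genes did not, with 2.36 to 3.19 CPM in MERKO libraries and 0.87 to 2.095 in control libraries. Its log2 fold change was 0.67 (95% interval -0.049 to 1.39, adjusted p = 0.713, edgeR).

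Enzymes and adaptors that modify clock proteins or mark them for breakdown had a median absolute log2 fold change of 0.089, below the 0.14 over all genes. Of 26 genes 25 were tested. MERKO was higher for 9 and lower for 16 (median log2 fold change -0.040), and 0 passed by edgeR, DESeq2 or limma-voom (0 at an unadjusted p under 0.05). The lowest p-values belonged to Fbxw7, a ubiquitin ligase subunit (log2 fold change 0.23, 95% interval -0.027 to 0.48), Skp1, a subunit shared by such ligases (-0.17, -0.41 to 0.056), and Nono, an RNA-binding partner of PER proteins (-0.13, -0.32 to 0.068). Without a composition factor they were at 0.094, -0.31 and -0.23, and Skp1 was at -0.11 without control 3.

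Genes that the muscle clock is known to drive were examined as its output. Of 14 tested, MERKO was higher for 10 and lower for 4 (median log2 fold change 0.040), and 0 passed by edgeR, DESeq2 or limma-voom (1 at an unadjusted p under 0.05). The lowest p-values belonged to Fbxo32, a ubiquitin ligase of muscle atrophy that is also induced by glucocorticoids (log2 fold change -0.53, 95% interval -0.95 to -0.099), Wee1, a cell cycle kinase (0.46, -0.057 to 0.97), and Hk2, a hexokinase (0.24, -0.15 to 0.63). Wee1 was at 0.29 without MERKO 1, and Hk2 was at 0.41 without control 1, 0.090 without control 3 and 0.16 without a composition factor. Usp2, a strongly rhythmic deubiquitinase, stood at 119, 120 and 112 CPM in MERKO, against 116, 114 and 110 CPM in control, and its groups overlapped.

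Glucocorticoids entrain clocks outside the brain and act directly on Per1, so their induced genes were set beside it. Of 20 such genes, with Fbxo32 again among them, MERKO was higher for 1 and lower for 19, where it was lower for 6534 of all 13628 genes tested. Their median log2 fold change was -0.18, against 0.011 over all genes. By edgeR and limma-voom 0 passed. At an unadjusted p under 0.05 there were 5, where 7.04% of all genes were, and DESeq2 called 1, Fkbp5, where it called 0.165% of all genes. Fkbp5 binds the glucocorticoid receptor with HSP90. It had 67.9, 41.8 and 56.4 CPM in MERKO, against 112, 96.9 and 105 CPM in control, with no overlap. Its log2 fold change was -0.92 (95% interval -1.30 to -0.53, adjusted p = 0.631, edgeR, and adjusted p = 0.000495, DESeq2, with 0.000495 to 0.999 over all alternatives). Next by p came Sgk1, a kinase, with a log2 fold change of -0.38 (-0.65 to -0.11), and Trim63, a ubiquitin ligase of atrophy, with -0.80 (-1.41 to -0.199). Per1, a member of this list, had the smallest absolute log2 fold change of the 20.

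Body temperature also sets peripheral clocks, so genes driven by temperature were read, together with immediate early genes. Of 13 genes of these kinds, MERKO was higher for 10 and lower for 3 (median log2 fold change 0.22), where it was higher for 7094 of all 13628 genes tested. Again 0 passed by edgeR and limma-voom, 4 had an unadjusted p under 0.05 (7.04% of all genes), and DESeq2 called 2, Hspa1b and Atf3 (0.165% of all genes). The heat shock gene Hspa1b stood at 2.25, 1.77 and 1.97 CPM in MERKO, against 0.46, 0.47 and 0.72 in control libraries (log2 fold change 1.79, adjusted p = 0.597, edgeR, and 0.032, DESeq2, with 0.00919 to 0.883 over all alternatives). Hspa1b rested on 21 to 74 counts in MERKO libraries and 6 to 39 in control libraries, and its near-identical copy Hspa1a could share its reads. The stress-induced factor Atf3 stood at 5.47, 2.52 and 2.84 CPM in MERKO, against 1.39, 0.63 and 1.103 in control libraries (1.77, adjusted p = 0.631, edgeR, and 0.0241, DESeq2, with 0.00275 to 0.999 over all alternatives). Hspb1, a small heat shock protein, had a log2 fold change of 0.46 (95% interval 0.14 to 0.77).

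Whether the libraries differed in clock phase was described with an index in each library. The index is the mean log2 CPM of 6 genes of the day and dusk (Nr1d1, Nr1d2, Dbp, Per1, Per2 and Per3) minus that of 2 genes of the opposite phase (Arntl and Clock), each relative to its mean over 6 libraries. Library scaling cancels in it. The index was 0.21, 0.297 and -0.026 in MERKO 1 to 3, against -0.039, -0.056 and -0.38 in control 1 to 3. The MERKO libraries lay higher, yet MERKO 3 stood next to control 1 and 2. The mean was 0.16 ± 0.17 in MERKO and -0.16 ± 0.19 in control (SD, n = 3 each), a difference of 0.32 on the log2 scale. Without control 3 the difference was 0.21. The genes were chosen with results known, so no test was made.

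With TMM scaling, most of that difference lay in the opposite-phase genes. Their mean was -0.13 ± 0.099 in MERKO and 0.13 ± 0.16 in control, whereas the day and dusk genes stood at 0.033 ± 0.070 in MERKO and -0.033 ± 0.12 in control. MERKO minus control was thus -0.25 for the opposite-phase genes and 0.066 for the day and dusk genes, and each of these means overlapped between groups. Library scaling cancels in the index but not in either mean alone. The day and dusk mean joined genes of both signs, with log2 fold changes from -0.29 (Nr1d1) to 0.30 (Per2). That of the opposite phase came mainly from Arntl (-0.40, against -0.11 for Clock). An index from 7 other clock genes (Tef, Hlf, Ciart, Bhlhe41 and Usp2 minus Npas2 and Nfil3) was 0.069, 0.16 and 0.52 in MERKO, against -0.70, -0.046 and 0.0035 in control. Its groups did not overlap either, but its order of libraries was another one, with MERKO 3 highest and control 1 lowest. That separation rests on Npas2, which had at most 7 counts. Relative to its mean over 6 libraries, Npas2 was at -0.34 in MERKO 1 and 0.33 in control 2, and Nfil3 at -0.054 and -0.097. The mean of Tef, Hlf, Ciart, Bhlhe41 and Usp2 was -0.13 and 0.068 in these libraries. With Nfil3 alone set against it, MERKO 1 would thus lie below control 2.

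Ratios of CPM between single pairs were taken in each library as well. Dbp over Arntl was 6.23, 8.41 and 5.64 in MERKO, against 4.32, 4.98 and 3.70 in control, which are 1.56-fold apart in their means. Per2 over Arntl was 1.92, 2.08 and 1.38 in MERKO, against 1.27, 1.13 and 0.89 in control. Both ratios were higher in every MERKO library. Nr1d1 over Arntl, the pair of repressor and target, was 1.43, 1.23 and 0.89 in MERKO, against 1.09, 1.34 and 0.88 in control, and overlapped. Against Nr1d1, Per2 was at 1.34, 1.70 and 1.55 in MERKO and 1.17, 0.85 and 1.02 in control. Dbp over Nr1d1 was 4.36, 6.85 and 6.32 in MERKO, against 3.98, 3.72 and 4.22 in control. Per2 over Nr1d1 and Dbp over Nr1d1 did not overlap between groups, and both rest on Nr1d1. Nr1d1 over Nr1d2, also a pair of day and dusk genes, was 0.104, 0.087 and 0.086 in MERKO, against 0.105, 0.137 and 0.103 in control, and overlapped. Cry1 over Arntl overlapped too, at 0.85, 1.26 and 0.72 in MERKO, against 0.80, 0.64 and 0.62 in control. Over all 6 libraries the widest of these ratios, Per2 over Arntl, spanned 2.33-fold.

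**Figure D3:**
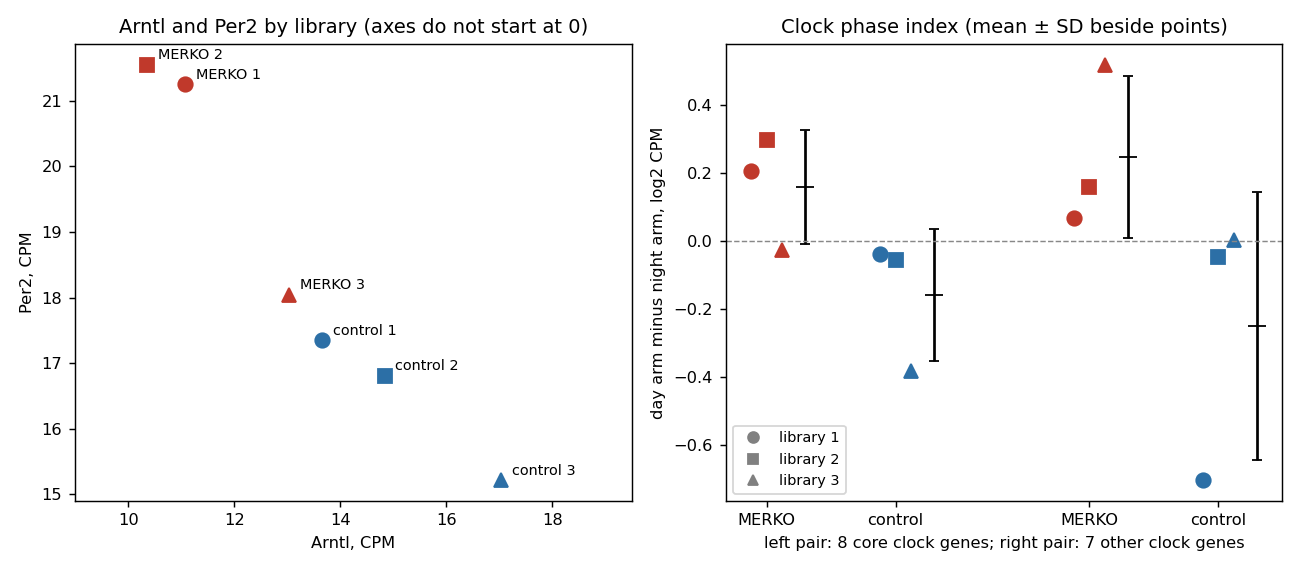
Left, Per2 against Arntl in CPM for each library (axes do not start at 0). Right, the phase index (day and dusk genes minus opposite-phase genes, log2 CPM) per library with mean ± SD, from 8 core clock genes and from 7 other clock genes. The core index is 0.21, 0.297 and -0.026 in MERKO and -0.039, -0.056 and -0.38 in control.

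Arntl and Per2 mirrored each other library by library. Arntl was highest in control 3, then control 2, control 1, MERKO 3, MERKO 1 and MERKO 2, and Per2 ran in exactly the reverse order. Pearson's r of their log2 CPM was -0.99 over 6 libraries, with a Spearman's rho of -1, and r was -0.98 over the 4 libraries left without MERKO 2 and control 3. Of all other genes tested, 0 had a lower r with Arntl than Per2 had. These values share library depth and the group difference, were singled out after they were seen, and carry no p. The other clock genes did not run in parallel: the 45 pairs of the 10 genes had r between -0.99 and 0.76, with a median of 0.085.

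Outside the 10 genes, those most like Arntl over the 6 libraries were Bcap29, Prrg1, Parp6, Fbxo45 and Zfp935, with r between 0.98 and 0.99 among 10234 genes compared. The most opposite were Luc7l, Six4, Utp20, Stim1 and Acbd4, with r between -0.99 and -0.97. For Dbp the most like were Atp10d, Hinfp, Mpzl3, Uggt1 and Mtmr9 (r of 0.98 to 0.99), and the most opposite were Mrpl30, Snu13, Ssna1, Hist1h4h and Washc3 (r of -0.99 to -0.98). With 6 libraries and that many genes, values of this size are a description only.

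The clock genes were also compared with other genes in how far libraries of 1 group differed. The SD within groups of log2 CPM had a median of 0.17 over the 10 genes, against 0.20 over all genes tested. Nr1d2 (SD 0.057) varied less than all but 2.69% of the 13628 genes, and Per1 (SD 0.067) less than all but 4.75%. Nr1d1 varied most, with an SD of 0.23, at the 56.9th percentile. Genes of lower level vary more, so the 5740 genes between the average levels of Cry1 and Nr1d2 were also taken. Among these 5740 genes, Nr1d2 stood at the 5.40th percentile of SD, Per1 at the 9.43rd, and Nr1d1, the highest of the 10, at the 81.9th. Clock (41.1) and Per2 (41.2) stood below the middle. Arntl (64.1), Dbp (66.2), Per3 (71.4), Cry2 (73.8) and Cry1 (76.0) stood above it. Most of the 10 genes thus varied more than the median gene there, unlike over all genes tested. All 10 genes shared this window, so no gene was matched to its own level. In average log2 CPM, Nr1d2 lay at its upper end (7.17) and Nr1d1 (3.91) near its lower end (3.40).

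From the lowest to the highest of the 6 libraries, Nr1d1 spanned 1.71-fold, Arntl 1.65-fold, Dbp 1.48-fold and Per2 1.42-fold. Per1 spanned 1.12-fold. The median span of the 10 genes was 0.48 on the log2 scale, against 0.57 over all genes tested. Among the 5740 genes of the level window, the span of Nr1d1 stood at the 88.8th percentile, Arntl at the 86.5th and Dbp at the 76.4th. Per2 (69.5), Per3 (68.7), Cry1 (64.4) and Cry2 (61.2) also stood above the middle. Clock (28.9), Per1 (5.31) and Nr1d2 (3.61) stood below it.

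**Figure D4:**
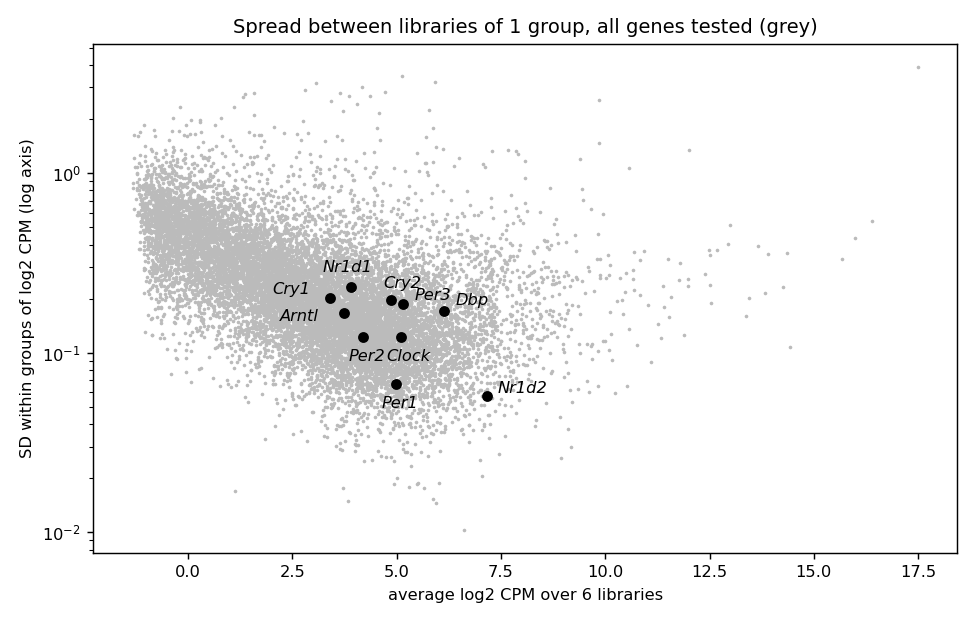
SD within groups of log2 CPM (log axis) against average log2 CPM for all 13628 genes tested in grey, with the 10 clock genes in black. Nr1d2 (0.057) and Per1 (0.067) are the lowest of the 10, and Nr1d1 (0.23) is the highest.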

How the data were processed

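The authors deposited raw read counts per gene for every library. STAR 2.5.2b and HTSeq 0.9.1 are named, per the submitters' processing notes, as are DESeq, mm10 and GRCm38. Trizol RNA and TruSeq libraries were used, per the labels' protocols. The sources used here do not give the annotation release, the strand setting or the treatment of multiply placed reads. Symbols matched 48349 identifiers, with coordinates and exon lengths from GENCODE M21 (GRCm38).

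Groups came from sample titles. The test of MERKO against control was edgeR's quasi-likelihood test (edgeR 4.0.16, R 4.3.3, filterByExpr, TMM, genotype only), with Benjamini-Hochberg adjustment over 13628 genes and a threshold of 0.05. Log2 CPM used a prior count of 2. Intervals cover 95%. The code was tested on simulated data. Alternatives were DESeq2 1.42.0, limma-voom (limma 3.58.1), other scalings and filters, a replicate block, a robust prior, a threshold of 0.1 and leaving out libraries.

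The members and lists were chosen with earlier results of these data known. Named were the clock factors, of which 1 is not reported here, and, from each further list, genes past the threshold and the 3 with the lowest p. Likeness to Arntl and Dbp was ranked over genes with a mean log2 CPM from 1 up. Usp2 was named after its values were seen. Counting error covers reads, which are not independent molecules.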

Additional observations from a re-analysis of the deposited data

How the results depend on the processing

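The count of clock genes called was 0 in all 18 alternatives. The directions of Arntl, Per2, Per3, Clock, Nr1d1 and Dbp held in the 17 of them that give a fold change. The count over all genes was 1, and it was 23 with DESeq2, 93 without a composition factor, 140 without a low-count filter, 0 to 11 without single libraries (0 without MERKO 1 or MERKO 2, 11 without MERKO 3, 2 without control 1 or control 3) and 7 without MERKO 1 and control 1 together. Omitting the composition factor moved the median log2 fold change of all genes to -0.10. The replicate block gave 51 genes. Same-numbered libraries correlated in their deviations from group means with r of 0.45, 0.16 and 0.061. Between differently numbered libraries, r ran from -0.31 (MERKO 2 with control 1) to 0.18 (MERKO 2 with control 3). The titles do not say that equal numbers pair animals, so the numbers were not taken as pairs. Fkbp5, Trim63 and Atf3 were called under the block (adjusted p = 0.0109, 0.0217 and 0.0329, edgeR). Pairs of libraries 1 and of libraries 2 were left out as alternatives chosen after the data were seen.

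The difference of the phase index, 0.32, was 0.63 from Dbp and Arntl alone, and 0.21 to 0.41 without single libraries. Other log2 fold changes took the other sign under some alternatives, and the cause was not tested. Per1 was 0.0016 with the 1 CPM filter, -0.049 to 0.035 without single libraries, and 0.032 and 0.033 without libraries 1 and 2 of both groups. Cry1 was -0.049 with limma-voom, -0.13 without a composition factor, -0.0070 with the block, -0.13 to 0.0999 without single libraries, and 0.13 and -0.19 without libraries 1 and 2. Cry2 was 0.010 with limma-voom, 3.4e-05 with RLE scaling, 0.0058 with the 1 CPM filter, 0.0087 with the block, -0.088 to 0.14 without single libraries and 0.067 without libraries 2. Nr1d2 was -4.6e-05 with limma-voom, -0.0063 with DESeq2, -0.10 without a composition factor, -0.0010 without a filter, -0.034 to 0.048 without single libraries and -0.045 without libraries 1. Hlf was -0.030 with limma-voom, -0.099 without a composition factor and -0.14 to 0.27 without single libraries. Rora ran from -0.27 to 0.046 and Tef from -0.094 to 0.00052 without single libraries. Without libraries 1 Tef was 0.028. Ciart, at 0.13 over all libraries, was -0.0094 without libraries 1 and kept its sign at 0.23 without libraries 2. Rorb, at 0.47 over all libraries, was -0.11 without libraries 2 and kept its sign at 1.05 without libraries 1.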
